A study of Mus musculus with 7 samples.

Results

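The genes described here encode the protein components of the cytosolic ribosome. They were taken by name as every gene with a symbol of the Rpl, Rplp or Rps series that the LPS table annotates as protein coding and that the AAV table also lists. This gave 83 genes (the members) of the 48440 in the LPS table, 52 of the large subunit and 31 of the small subunit. A further 4 symbols fitted the pattern but were annotated as pseudogenes (Rps3a2, Rps3a3, Rps4l and Rps12l1) and were not included. Ribosomal proteins outside the naming pattern, such as Rpsa, Fau and Rpl36al, are given separately.

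Bone-marrow-derived macrophages (BMDMs) of wild-type C57BL/6 mice, grown in M-CSF, were used throughout. In the LPS experiment, BMDMs labelled WT were left without treatment (LPS 0h) or received 100 ng per mL of LPS, a bacterial cell wall component that activates macrophages, for 2 h (LPS 2h) or 4 h (LPS 4h), with 1 library each. In the AAV experiment, BMDMs were exposed for 48 h to an adeno-associated virus with GFP (AAV-GFP, labelled WT, 2 samples) or Shisa3 (AAV-SHISA3, labelled Shisa3 overexpression, 2 samples), and neither group received LPS. The vector used the broadly active CAG promoter, which does not restrict expression to a cell type. The labels do not say whether the samples of a group came from separate cultures or animals, and the p-values therefore measure only the spread between these samples.

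The cytosolic ribosome joins a small subunit, which decodes the mRNA, to a large subunit, which forms the peptide bond. Its proteins are needed in nearly equal amounts, and their mRNAs are among the most abundant in any growing cell. Many of these mRNAs start with a tract of pyrimidines, the 5′ terminal oligopyrimidine (TOP) sequence, through which mTOR signalling and the RNA-binding protein LARP1 regulate their translation. Translation itself was not measured in these data, only the mRNA.

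The LPS libraries held 15588502 (0h), 7263258 (2h) and 32659392 (4h) reads, recovered from values that were whole multiples of 1 step per library, within a tolerance of 0.01 of a read, for 100% of the values above 0. The AAV values were TPM, for which the depth is unknown. Shisa3, the delivered gene, was at 7.88 and 10.85 TPM in AAV-GFP and at 12.31 and 17.81 TPM in AAV-SHISA3, with a log2 fold change of 0.63 ± 0.22 (SE) and an adjusted p of 0.138 (limma), so both AAV-SHISA3 samples were higher but the difference did not pass the test. Of 8 macrophage markers, 7 (Lyz2, Adgre1, Csf1r, Cd68, Fcgr1, Itgam and Cd14) were at 712 TPM or more in every AAV sample and Mertk was between 18.8 and 20.0 TPM, and the T cell markers Cd3d, Cd3e, Cd3g and Trac were listed at 0 in all of them. Of the 8 neutrophil markers, 7 could be tested, and each was higher in both AAV-SHISA3 samples than in both AAV-GFP samples. Camp and Ngp, which encode neutrophil granule proteins, passed the test. Over all genes tested, 18.2% had both AAV-SHISA3 samples above both AAV-GFP samples and 2.23% were called higher. Of 4 B cell markers, 1 could be tested, Cd79b, at 13.5 and 11.4 TPM in AAV-GFP and at 9.35 and 7.88 TPM in AAV-SHISA3. Of 5 fibroblast markers, 3 could be tested, and 0 had both AAV-SHISA3 samples above and 1 had both below. The summed share of the neutrophil markers was 0.0593% and 0.0565% of TPM in AAV-GFP and 0.109% and 0.0682% in AAV-SHISA3.

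The sequence at the start of these genes was looked at first, since TOP tracts are what many of them are known to share. RefSeq promoter sequences (GRCm38.p6) matched 62 of the 83 genes. An unbroken run of at least 6 C or T letters on the transcribed strand, covering the annotated start or lying within 5 bases of it, was found for 32 of the 62 genes (51.6%), beside 24.0% of all 27025 genes in the same table. Runs of A or G of the same length and position, which are the same letters on the opposite strand, were found for 7 of the 62 (11.3%, beside 25.9% of all genes). The letters CCGGAAG or their reverse complement CTTCCGG, the core of many ETS factor motifs, lay in the 300 bases around the start of 25 of the 62 genes (40.3%), beside 9.93% of all genes, 22 of 55 ribosome biogenesis genes (40.0%) and 26 of 69 mitochondrial ribosomal protein genes (37.7%). These are matches of letters and not sites shown to be used. The annotated start also need not be the one used in BMDMs. The following windows run from 15 bases before the start to 15 bases from it, on the gene's strand, with the C and T run in capitals. They are shown for genes whose values are described further on, 4 with a run and 4 without. The windows are chr7:3704026-3704055 (plus) for Rps9, chr3:28805493-28805522 (plus) for Rpl22l1, chr7:45128731-45128760 (minus) for Rpl13a, chr17:24720048-24720077 (plus) for Rps2, chr16:55966260-55966289 (plus) for Rpl24, chrX:74270801-74270830 (plus) for Rpl10, chrX:37085208-37085237 (minus) for Rpl39 and chr5:115559452-115559481 (plus) for Rplp0.
Rps9: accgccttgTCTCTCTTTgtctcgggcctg
Rpl22l1: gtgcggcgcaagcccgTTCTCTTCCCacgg
Rpl13a: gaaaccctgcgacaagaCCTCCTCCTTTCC
Rps2: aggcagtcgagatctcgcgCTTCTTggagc
Rpl24: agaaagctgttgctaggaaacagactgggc
Rpl10: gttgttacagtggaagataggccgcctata
Rpl39: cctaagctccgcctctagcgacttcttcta
Rplp0: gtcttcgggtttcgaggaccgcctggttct

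Ribosomal protein mRNAs were among the most abundant in BMDMs. In AAV-GFP, 29 of the 83 genes were among the 100 genes with the highest mean TPM and 76 were among the top 500. For 77 genes the mean lay between 292 and 4165 TPM, a 14.2-fold range with a median of 1121 TPM. Rplp1, an acidic protein of the stalk that recruits elongation factors, was the highest at 4150 and 4180 TPM, followed by Rps29 at 3115 and 3548 TPM, and the values of these genes did not overlap. Further down the values ran closely together, with Rps14 at 2167 and 2259 TPM and Rpl32 at 2174 and 2072 TPM overlapping each other.

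The 5 lowest detected genes all carry the symbol of another ribosomal protein with an added l or l1. Rpl7l1, an Rpl7 paralogue linked to ribosome assembly, was at 113 and 96.5 TPM, and Rpl22l1, the paralogue of Rpl22, was at 71.7 and 53.9 TPM. Rpl6l was at 3.36 and 3.28 TPM, Rpl39l at 0.78 and 2.56 TPM and Rpl3l at 0.09 and 0 TPM. Rpl10l, the testis-expressed paralogue of Rpl10, was listed at 0 in every AAV sample and had 0 reads in every LPS library, which allows at most 3 reads. The parent genes were far higher, with Rpl10 at 1611 and 1829 TPM, Rpl39 at 513 and 500 TPM and Rpl3 at 600 and 555 TPM. Levels differed between the tables for some genes. At LPS 0h Rpl6l held 771 reads, a length-scaled level of 126 TPM, against 3.32 TPM in AAV-GFP, and Rps15a was at a length-scaled level of 103 TPM against 1613 TPM. How reads shared by Rpl6l and its near-identical parent Rpl6 were assigned is not given in the sources used here, and its values are uncertain. Processed pseudogenes are a related source of shared reads. The symbols ending in -ps held a median of 0.31% of their parent's TPM over the 61 parents that have any, and over 5% for Rps23 (18.2%), Rpl31 (15.1%) and Rpl36a (5.56%).

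**Figure D1:**
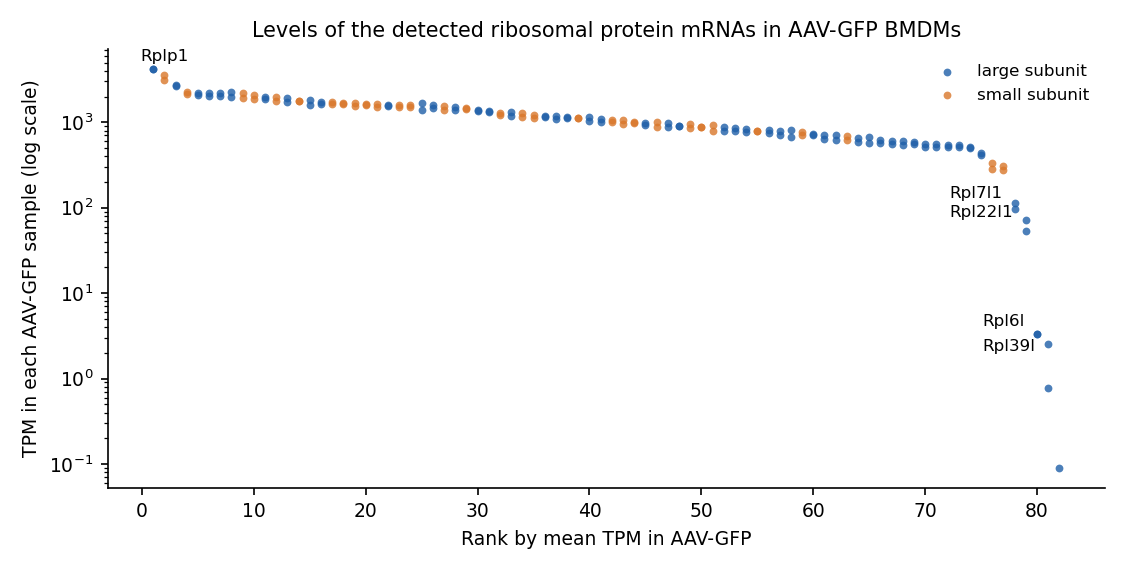
TPM in each of the 2 AAV-GFP samples (points, log scale) for the 82 ribosomal protein genes detected, ordered by mean TPM and coloured by subunit. Of these, 77 genes lie between 292 and 4165 TPM in the mean, and Rpl7l1, Rpl22l1, Rpl6l and Rpl39l lie in the steep tail at the right. The 0 of Rpl3l in 1 sample cannot be drawn on a log scale.

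Per length, the order in the LPS libraries was led by the same protein. Rplp1 was the highest at all 3 times, with length-scaled levels, computed as TPM from the recovered reads, of 2812, 2316 and 1867 in time order. Rplp0, the stalk base protein, was next at 0h (1503) and 2h (1187), and Rps29 was next at 4h (1056). Across the 77 genes above, Spearman's rho between the length-scaled level at LPS 0h and the AAV-GFP TPM was 0.50, a description over genes that share the annotation used for length.

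The direction in which ribosomal protein mRNAs changed with LPS depended on how the libraries were scaled. Their share of all reads was 3.11% at 0h (95% Wilson interval 3.10 to 3.12). It was lower at 2h, with 2.51% (2.50 to 2.52), and lower again at 4h, with 1.86% (1.85 to 1.86). The share at 4h was 0.598 times that at 0h. The subunits were alike in this, the large at 1.89%, 1.52% and 1.11% and the small at 1.22%, 0.989% and 0.749%. In the values as deposited, by contrast, the summed level was 1.28 times the 0h level at 2h and 1.06 times at 4h. The difference between these accounts lies in the authors' library factors, which made the column totals 10027530, 15860561 and 17747464. The intervals cover counting error only, and with 1 library per time there is no replicate check and no p-value.

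**Figure D2:**
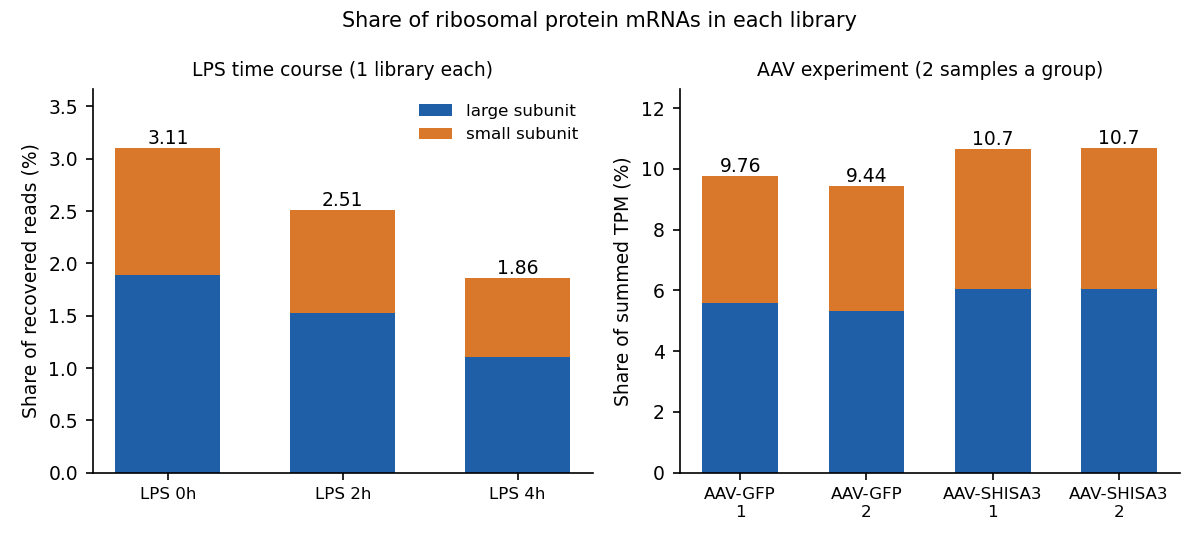
Share of ribosomal protein mRNAs in each library, stacked by subunit, as a percentage of recovered reads for the LPS time course (left) and of summed TPM for the AAV samples (right). The share goes from 3.11% to 1.86% over the LPS course and is 9.76% and 9.44% in AAV-GFP and 10.7% in both AAV-SHISA3 samples.

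Of the 83 genes, 81 had a mean deposited value of at least 1, and Rpl10l and Rpl3l did not. In the values as deposited, 0 of the 81 were at least 2-fold higher at 2h, where 20.5% of all 17854 genes kept were, and 1 was at least 2-fold lower, where 24.7% of all genes were. That gene was Rpl39l, with 3 reads at 0h and 0 at 2h, too few for a fold. At 4h, 0 were 2-fold higher and 0 were 2-fold lower, beside 22.2% and 23.6% of all genes. The log2 changes had a median of 0.33 at 2h, with 68 of 81 genes above 0 (84.0%, beside 47.6% of all genes), and a median of 0.07 at 4h, with 53 of 81 above 0 (65.4%, beside 48.1%). The medians of all genes were -0.05 and -0.04. With reads scaled to equal library totals, the medians were -0.33 at 2h and -0.75 at 4h, with 8 of 81 above 0 at 2h (9.88%, beside 28.8% of all genes) and 1 of 81 at 4h (1.23%, beside 26.6%), but the medians of all genes were then -0.68 and -0.80. On that scale 0 genes were 2-fold higher and 5 were 2-fold lower at 2h (beside 13.6% and 39.6% of all genes), and 0 and 1 at 4h (beside 12.4% and 42.6%). Relative to the median of all genes, ribosomal protein mRNAs thus stood higher at 2h by 0.38 on the deposited scale and by 0.35 with equal totals, and at 4h by 0.11 and 0.05.

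**Figure D3:**
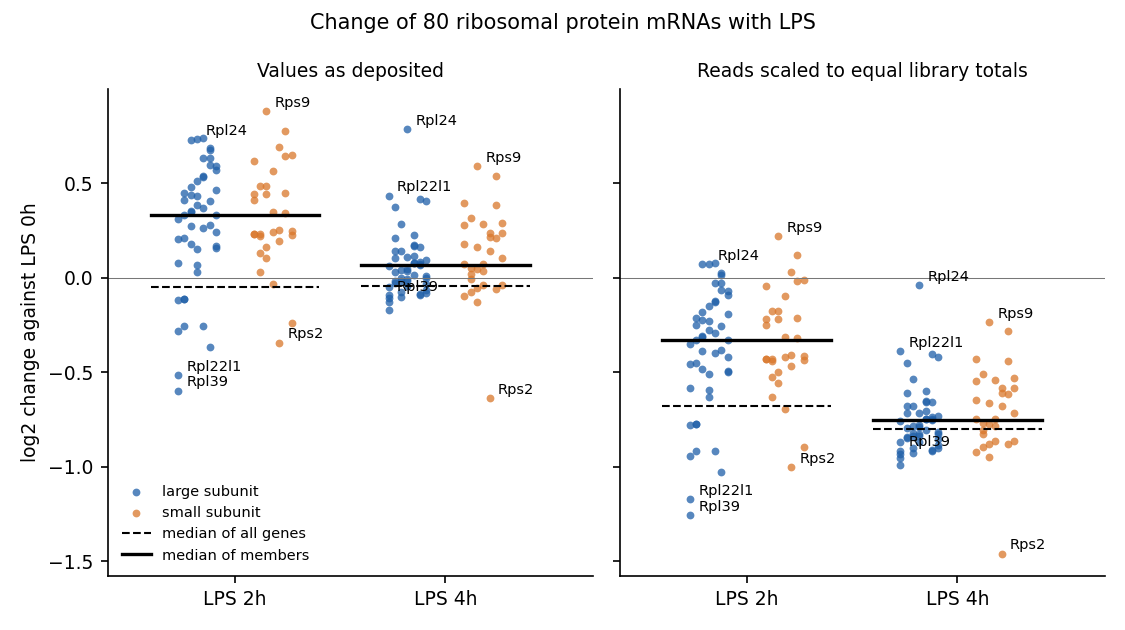
Log2 change against LPS 0h of 80 ribosomal protein genes (points, by subunit; Rpl39l, with 7 reads or fewer per library, is left out), in the values as deposited (left) and with reads scaled to equal library totals (right), with the median of the 81 genes kept (solid) and of all genes (dashed). On the left the medians of the ribosomal protein genes are 0.33 and 0.07, and on the right they are -0.33 and -0.75, while they lie above the median of all genes in each case.

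The 2h library held the highest deposited value for 64 of the 81 genes, the 4h library for 13 and the 0h library for 4. As shares of reads, 72 of the 81 were highest at 0h, and 63 were lower at 2h than at 0h and lower again at 4h. With exact counting intervals on the deposited scale, 64 genes lay above their 0h level at 2h, 8 below and 9 on neither side. At 4h the numbers were 42, 15 and 24. The 2h library was the shallowest and held 5830 reads of mitochondrial transcripts (0.0803% of reads, beside 0.655% at 0h and 0.427% at 4h), and 6.37% of its reads lay in misc_RNA and ribozyme genes, beside 4.63% and 3.91%. The neutrophil markers held 0.0470%, 0.0625% and 0.0397% of reads at 0h, 2h and 4h. Their median changes were 0.85 at 2h, with 4 of 8 past 2-fold upward, and 0.29 at 4h, or 0.19 and -0.53 with equal totals. The part of these features in the LPS values was not tested.

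Rps9, a small-subunit protein that binds the body of the ribosomal RNA, was among the genes with the largest increases at both times. It had 10918, 5928 and 19465 reads at 0h, 2h and 4h, deposited values of 7023, 12945 and 10578, and log2 changes of 0.88 at 2h (95% counting interval 0.84 to 0.93) and 0.59 at 4h (0.56 to 0.62). With equal library totals it was at 0.22 and -0.23, so the sign at 4h turned with the scaling. Rpl24, which helps to bridge the subunits, was the highest at 4h, with 3458, 1696 and 7059 reads and changes of 0.74 and 0.79, which became 0.07 and -0.04 with equal totals. Its share of reads stayed at 0.0222%, 0.0234% and 0.0216%, while that of the genes together went from 3.11% to 1.86%. Other genes with large changes at 2h were Rpl13 (0.74) and Rpl36 (0.73). At 4h these were Rps20 (0.54), Rpl22l1 (0.44) and Rpl39l (0.71, interval -1.15 to 3.56, from 3 and 7 reads).

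Rps2, a small-subunit protein near the mRNA entry, had the largest decrease at 4h under both scalings. Its reads were 8993, 2089 and 6849, its deposited values 5785, 4562 and 3722, and its log2 changes -0.34 at 2h (-0.41 to -0.27) and -0.64 at 4h (-0.68 to -0.59). With equal totals the changes were -1.004 and -1.46. Rps2 was 1 of 4 genes below their 0h level at both times on the deposited scale. Rpl39, a short protein of the peptide exit tunnel, was lower at both times and further from its 0h level at 2h, with deposited values of 2181, 1441 and 2047 and changes of -0.60 (-0.72 to -0.48) and -0.09 (-0.16 to -0.02), or -1.26 and -0.91 with equal totals. Rpl22l1 moved in opposite directions at the 2 times on the deposited scale, from 655 to 135 and 1049 reads, with changes of -0.51 (-0.79 to -0.25) and 0.44 (0.29 to 0.58), and of -1.17 and -0.39 with equal totals. Its parent Rpl22, an RNA-binding protein dispensable for general translation, had the reverse order, at 0.59 (0.48 to 0.70) and -0.06 (-0.15 to 0.02). Rpl6l was at -0.37 at 2h, where its parent Rpl6 was at 0.53. The other genes at the low end at 4h were Rpl7a (-0.17), Rpl28 (-0.13), Rps18 (-0.13) and Rpl10 (-0.11), all small changes.

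The stalk genes were higher at both times on the deposited scale. The changes at 2h and 4h were 0.54 and 0.22 for Rplp0, 0.60 and 0.16 for Rplp1, and 0.57 and 0.40 for Rplp2. With equal totals all 6 values were below 0, between -0.66 and -0.06. The proteins that bind MDM2 and can stabilise p53 when ribosome assembly is disturbed differed among themselves. On the deposited scale Rpl5 was at 0.03 at 2h (interval -0.03 to 0.10) and -0.02 at 4h, Rpl11 at 0.35 and -0.02 and Rpl23 at 0.41 and 0.21. With equal totals Rpl5 was at -0.63 and -0.84, Rpl11 at -0.32 and -0.84 and Rpl23 at -0.25 and -0.61. Among genes with reported roles outside the ribosome in immune cells, Rpl13a, a part of the complex that represses translation of inflammatory mRNAs after interferon-γ, was at 0.63 (0.58 to 0.69) and -0.09 (-0.13 to -0.05). Rps3, which also associates with NF-κB, was at 0.44 (0.39 to 0.50) and -0.05 (-0.09 to -0.01). With equal totals Rpl13a was at -0.03 and -0.91 and Rps3 at -0.22 and -0.88.

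Some genes that build and regulate ribosomes were past 2-fold with LPS. Of 62 kept ribosome biogenesis genes, 11 were at least 2-fold higher and 2 at least 2-fold lower at 2h, and 11 and 4 at 4h, where 20.5% and 24.7% of all genes were at 2h and 22.2% and 23.6% at 4h. Their medians were 0.31 and 0.35 on the deposited scale and -0.35 and -0.47 with equal totals. Rcl1, an rRNA processing factor, had 85 reads at 0h, 294 at 2h and 2582 at 4h, with log2 changes of 3.53 and 4.66 (2.87 and 3.83 with equal totals). Rrs1 was at 3.16 and 2.59, and Sbds, which helps to release the anti-association factor EIF6 from the large subunit, was at 3.11 and 2.92. Of 11 regulators, 3 stood 2-fold or more above their 0h level at 2h and 4 at 4h, and 0 stood as far below it. Larp1 was at 3.17 and 3.54, Mxd1, a MYC antagonist, at 3.29 and 3.94, and Myc at 3.65 and 3.24 from 17 reads at 0h, and each was also above 2 with equal totals. The fourth at 4h was Eif4e, the cap-binding protein, at 0.75 and 1.86. In the other direction Tsc1, part of a complex that restrains mTOR, was at -0.84 and -0.92, and Rps6kb1, a kinase downstream of mTOR, at -0.71 and -0.01. The 12 genes of RNA polymerase I and its factors had medians of -0.25 and -0.33 (-0.90 and -1.14 with equal totals), with Polr1b at -1.34 and -1.41. The 16 other genes with TOP mRNAs, not all of them translation genes, had medians of 0.08 and 0.07, which turned to -0.58 and -0.75 with equal totals. Eif5a was at 0.92 and 1.09 (0.26 and 0.27 with equal totals), Nap1l1 at -0.81 and -0.72 and Npm1 at -0.64 and -0.66. The 77 mitochondrial ribosomal protein genes had medians of -0.09 and -0.14 (-0.75 and -0.96 with equal totals), with Mrpl52 at 2.69 and 2.42. The ribosomal proteins outside the naming pattern had medians of 0.26 and 0.20, which turned to -0.40 and -0.62 with equal totals.

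In the AAV experiment, ribosomal protein mRNAs took up a larger part of the transcriptome in AAV-SHISA3. The share was 9.76% and 9.44% of TPM in AAV-GFP (9.60% ± 0.23, SD, n = 2) and 10.7% in both AAV-SHISA3 samples (10.7% ± 0.027, SD, n = 2). The difference was 1.08 percentage points, or 1.11 times, and the groups did not overlap. An exact two-sided permutation test gave p = 0.333, the smallest value that this test allows for 2 against 2 samples, so it cannot reach 0.05. The large subunit went from 5.45% to 6.04% and the small from 4.15% to 4.64%, which were 1.11 and 1.12 times. Because TPM are shares, a higher sum here leaves less for all other genes. A larger number of transcripts per cell and a smaller amount of other mRNA cannot be told apart in such data.

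Gene by gene, few differences passed the test. Of the 81 genes whose mean reached 1 TPM, 1 was higher at an adjusted p under 0.05 (limma) and 0 were lower, which is 1.23% of them beside 6.33% of all 11218 genes tested (2.23% higher and 4.1% lower). Without adjustment, 22 reached a p under 0.05 on the higher side and 1 on the lower side, which is 28.4% beside 28% of all genes. The share of genes called was therefore not above the background. The fold changes were small, with a median of 0.14 and quartiles of 0.06 and 0.21 on the log2(TPM + 1) scale, and 0 of 81 were past 2-fold. All genes had a median of -0.10. The samples were arranged more one-sidedly. In 47 of 81 genes (58.0%) the 2 AAV-SHISA3 values exceeded the 2 AAV-GFP values, beside 18.2% of all genes, and in 2 of 81 (2.47%) both were below, beside 41.2% of all genes. A positive fold change was seen in 70 of 81. With each sample centred on its median, the median was 0.26 beside 0.01 for all genes, and the calls over all genes went from 250 higher and 460 lower to 410 higher and 230 lower. The members tested were shorter than other genes, with a median exon length of 1770 bases beside 4197, and over all genes the fold change fell with length (Spearman's rho -0.14). Removing the trend with length, an alternative chosen after seeing the data, left a median of 0.10 beside -0.10 for all genes, with 0 members called and 262 higher and 481 lower over all genes.

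**Figure D4:**
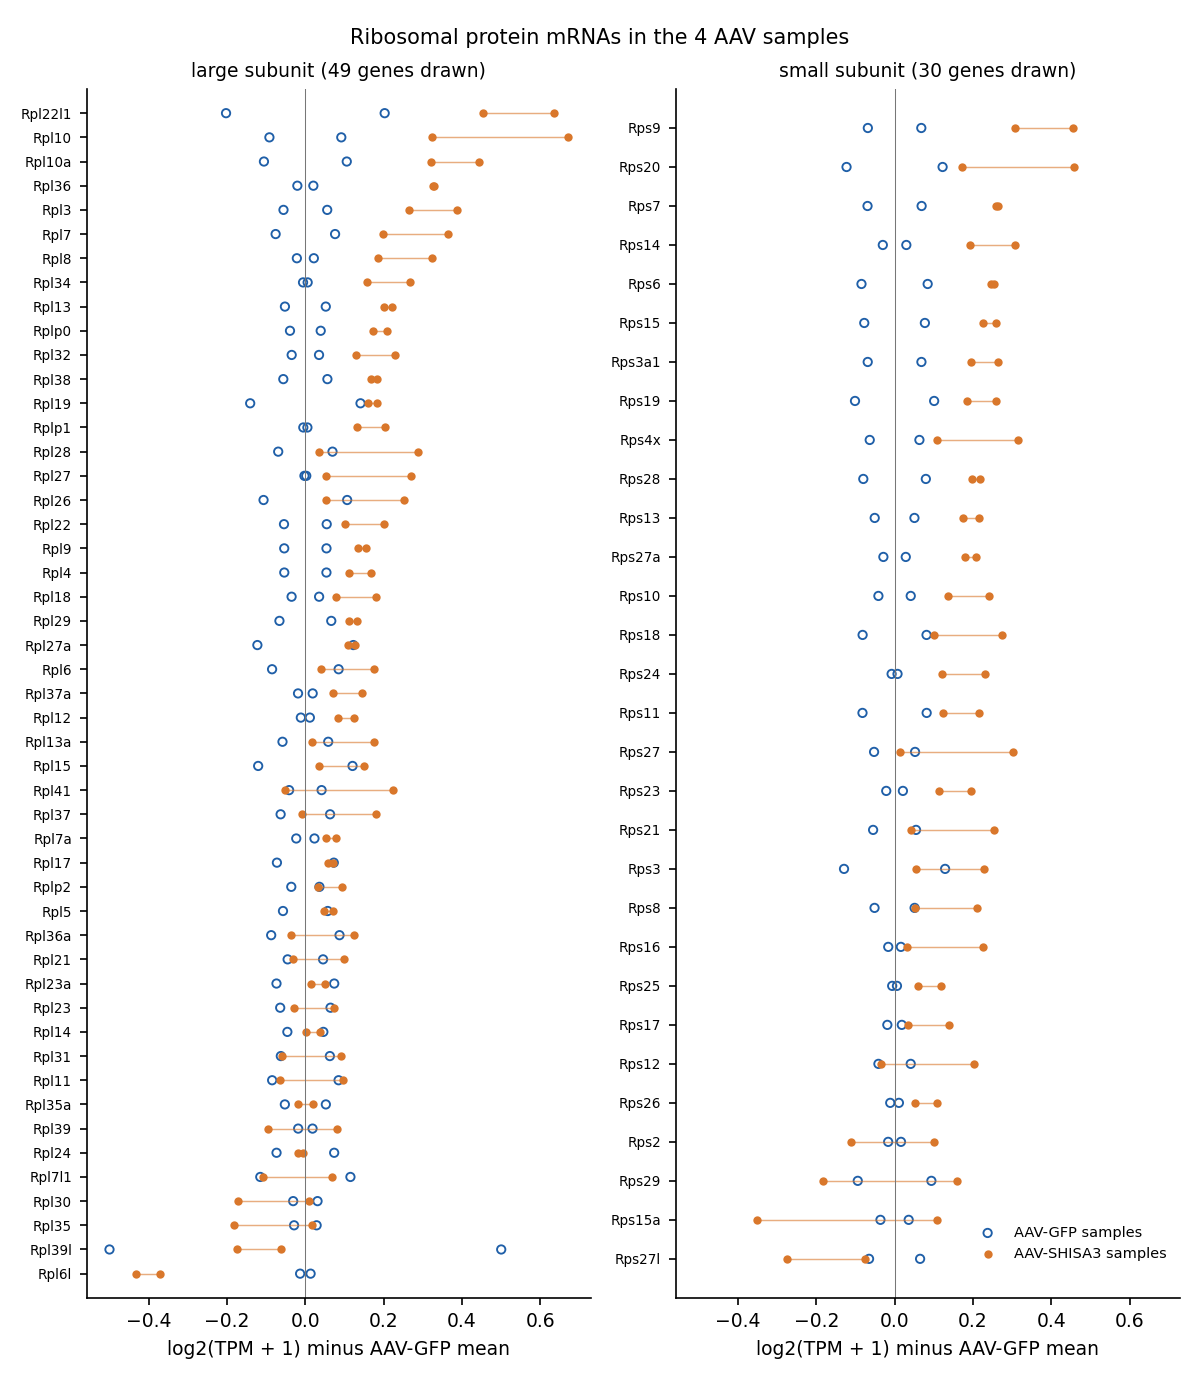
Log2(TPM + 1) of each AAV sample minus the AAV-GFP mean, for 49 large-subunit and 30 small-subunit genes among those tested, ordered by fold change (open circles, AAV-GFP; filled circles joined by a line, AAV-SHISA3). The AAV-SHISA3 samples lie to the right of both AAV-GFP samples for 45 of the genes drawn and to the left of both for Rpl6l and Rps27l.

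The gene that passed the test was Rpl36 (ENSMUSG00000057863.5, chr17:56613416-56614243 of GRCm38, plus strand, 383 exonic bases), a small protein of the large subunit. It was at 1583 and 1539 TPM in AAV-GFP and at 1956 and 1961 TPM in AAV-SHISA3, so that the AAV-SHISA3 values were close together and above both controls. The log2 fold change was 0.33 ± 0.07 (SE) with an adjusted p of 0.0489 (limma). The call stood close to the threshold. Over the alternatives, the adjusted p ranged from 0.0281 to 0.251, and it exceeded 0.05 without any 1 of the 4 samples, without the variance trend, without the filter and with the length trend removed. The fold change was 0.31 to 0.35 with a sample left out, 0.33 without the variance trend or the filter and 0.26 with the length trend removed. Apart from the length setting, these fits called few genes of any kind, from 0 higher and 0 lower to 27 higher and 7 lower over all genes, beside 250 and 460.

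Fold changes larger than that of Rpl36, or close to it, belonged to genes with a wider spread. Rpl22l1 was at 71.7 and 53.9 TPM in AAV-GFP and at 97.0 and 85.5 TPM in AAV-SHISA3, with a log2 fold change of 0.54 ± 0.15 (SE) and an adjusted p of 0.0893 (limma). Rpl10, which completes the large subunit late in its assembly, was at 1611 and 1829 TPM and at 2731 and 2147 TPM, with 0.50 ± 0.13 (SE) and 0.0842. The groups did not overlap in either gene, but neither gene passed the test. Rps9, the gene with the largest increase at LPS 2h, was at 1696 and 1543 TPM and at 2218 and 2003 TPM, with 0.38 ± 0.09 (SE) and an adjusted p of 0.0628. Rpl10a was at 719 and 621 TPM and at 835 and 908 TPM, also with 0.38. Rpl3, which forms part of the peptidyl transferase region, was at 600 and 555 TPM and at 755 and 694 TPM, with 0.33 and an adjusted p of 0.0713. Including Rpl22l1, Rpl10, Rps9 and Rpl10a, 7 genes had an adjusted p between 0.05 and 0.1.

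At the other end, 2 genes were lower in both AAV-SHISA3 samples. Rpl6l was at 3.36 and 3.28 TPM in AAV-GFP and at 2.20 and 2.34 TPM in AAV-SHISA3, with a log2 fold change of -0.40 ± 0.16 (SE) and an adjusted p of 0.170 (limma). Rps27l, a p53-inducible paralogue of Rps27, was at 306 and 279 TPM and at 277 and 241 TPM, with -0.17 and an adjusted p of 0.290. Rps15a (-0.12), Rpl39l (-0.12) and Rpl35 (-0.08) overlapped between the groups. Rps2, the gene with the largest decrease at LPS 4h, was at 1796 and 1755 TPM and at 1644 and 1903 TPM, with -0.01 ± 0.09 (SE), and Rpl24 and Rpl39 were also at -0.01, so that these did not differ beyond their spread.

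The changes of paralogues and their parents were set side by side. Rpl22 was at 0.15 beside 0.54 for Rpl22l1, Rps27 at 0.16 beside -0.17 for Rps27l, Rpl7 at 0.28 beside -0.02 for Rpl7l1, and Rpl39 at -0.01 beside -0.12 for Rpl39l, and none of these differences between the pairs was tested. Among the stalk genes, Rplp0 (1972 and 1868 against 2164 and 2217 TPM) and Rplp1 (4150 and 4180 against 4567 and 4800 TPM) had both AAV-SHISA3 samples higher, with 0.19 and 0.17 and adjusted p of 0.155 and 0.196 (limma). Rplp2 overlapped, at 0.06. Rpl5, Rpl11 and Rpl23 were at 0.06, 0.02 and 0.02 and overlapped between the groups. Rpl13a at 0.10 and Rps3 at 0.14 overlapped as well. The small-subunit genes had a median of 0.18, with 23 of 31 separated upward, and the large-subunit genes a median of 0.11, with 24 of 50. Of all genes tested, 18.2% were separated upward, and the difference between the subunits was not tested.

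Other genes of the translation machinery were counted in the same way. The 4 ribosomal proteins outside the naming pattern summed to 0.521% and 0.489% of TPM in AAV-GFP and 0.588% and 0.579% in AAV-SHISA3, and 3 of 4 had both AAV-SHISA3 samples above both AAV-GFP samples and 0 had both below. Of these 4, 0 passed the test, with Fau at 0.29 and an adjusted p of 0.0650 (limma). Of the 16 other TOP mRNAs, 1 was lower and 0 were higher, with a median of 0.11, and 10 had both AAV-SHISA3 samples above and 1 had both below. That gene was Eif4b, an initiation factor that stimulates the helicase EIF4A, at 130 and 138 TPM in AAV-GFP and 100 and 96.3 TPM in AAV-SHISA3, with -0.44 ± 0.08 (SE) and an adjusted p of 0.0348. Of 64 ribosome biogenesis genes 1 was higher and 0 were lower, with a median of 0.09, and 27 had both AAV-SHISA3 samples above and 11 had both below. The gene that passed was Mrto4, an assembly factor related to Rplp0, at 43.7 and 42.2 against 58.8 and 58.2 TPM, with 0.44 ± 0.08 (SE) and an adjusted p of 0.0380. Of the 12 RNA polymerase I genes, 0 passed in either direction, and 0 had a p under 0.05 before adjustment, with a median of 0.03. Of 11 regulators, 1 was higher, Mxd1, at 21.7 and 25.1 against 42.4 and 44.2 TPM, with 0.87 ± 0.10 (SE) and an adjusted p of 0.0203. Of the 78 mitochondrial ribosomal protein genes, 0 were higher and 1 was lower, Mrpl18, at 45.3 and 44.6 against 33.8 and 33.7 TPM, with -0.40 ± 0.08 (SE) and an adjusted p of 0.0483 (limma). Their median was -0.09, near that of all genes (-0.10), and 33 of 78 had both AAV-SHISA3 samples below both AAV-GFP samples and 9 had both above, beside 41.2% and 18.2% of all genes. Of 54 pseudogene symbols tested, 1 passed, Rpl38-ps2, which was listed at 0 in both AAV-GFP samples and at 20.3 and 11.2 TPM in AAV-SHISA3 (adjusted p 0.0113, limma). It reached the mean of 1 TPM needed for testing only through its AAV-SHISA3 values, so nothing is concluded from its call. Its parent Rpl38 was at 1513 and 1399 against 1652 and 1634 TPM, and how reads shared by the 2 were assigned is not given.

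**Figure D5:**
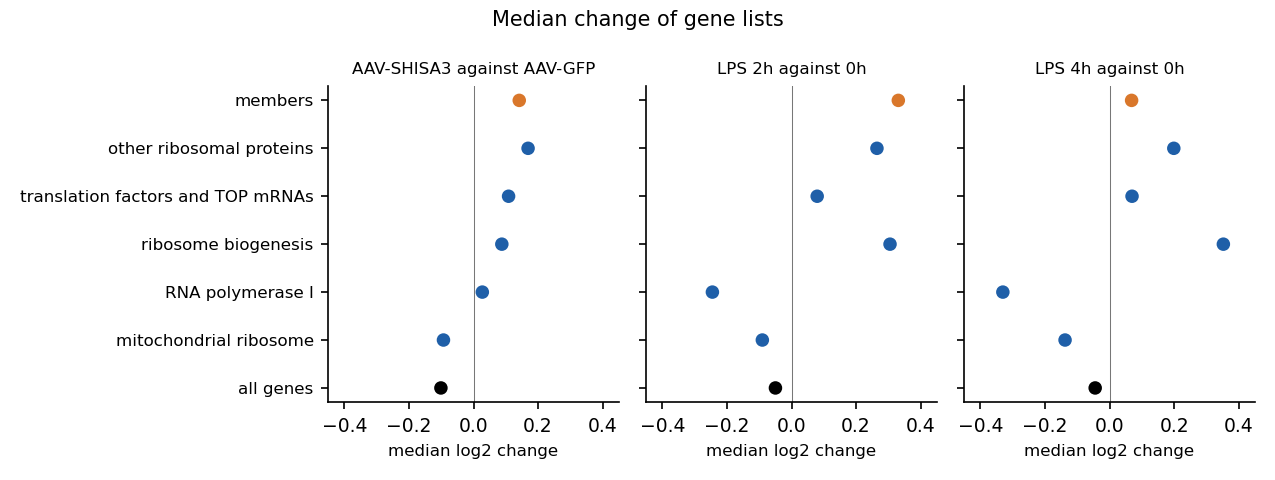
Median log2 change of the ribosomal protein genes and of related gene lists, beside all genes, for AAV-SHISA3 against AAV-GFP and for LPS 2h and LPS 4h against 0h in the values as deposited. The ribosomal protein genes lie at 0.14, 0.33 and 0.07 and all genes at -0.10, -0.05 and -0.04, and with equal library totals the LPS medians of the ribosomal protein genes turn to -0.33 and -0.75.

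The neutrophil markers that were higher in AAV-SHISA3 moved in the same direction as the ribosomal protein share. AAV-SHISA3 replicate 1 had the higher neutrophil share (0.109% against 0.0682%), and both AAV-SHISA3 samples had a ribosomal protein share of 10.7%. Of 8 macrophage markers, Cd14 passed the test, higher in AAV-SHISA3, and 2 of 8 were higher and 2 lower in both AAV-SHISA3 samples. The 7 proliferation markers summed to 0.0341% and 0.0305% of TPM in AAV-GFP and to 0.0428% and 0.0356% in AAV-SHISA3, so that these groups did not overlap either. Most of that sum was Pcna, a DNA replication clamp, 2 of the 7 had both AAV-SHISA3 samples above and 0 had both below, and 0 passed the test, with 1 at an unadjusted p under 0.05 (limma). The part of these markers in the ribosomal protein values was not tested. Among the genes with a promoter entry that could be tested, the 32 with a C and T run at the annotated start had medians of 0.12 in AAV-SHISA3 against AAV-GFP and 0.24 and 0.04 at LPS 2h and 4h, and the 28 without one had 0.14, 0.39 and 0.08. The genes with a run thus had the lower median in each comparison, a difference that was not tested.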

How the data were processed

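The LPS table deposited by the authors holds a signal for each gene, a count of reads over a factor set for each library. Reads were recovered from the step of the values and given 95% Wilson or exact binomial intervals, which cover counting error only. For the AAV samples the authors deposited values read as TPM, inferred from sums between 999778 and 999818. The submitters' processing notes name build mm9, but 99.2% of LPS identifiers and 96.4% of AAV symbols match GENCODE M21 (GRCm38), which gave positions and exon lengths. The aligner, counter and scaling tool are not given in the sources used here. RNA input is stated differently in the labels and the paper. Folds used log2(value + 1) for genes whose mean reached 1. AAV groups were tested with limma 3.58.1 (trend, R 4.3.3), with Benjamini-Hochberg adjustment over all genes and a threshold of 0.05, and the test was tested on simulated data. edgeR 4.0.16 gave TMM factors for the recovered reads. With 1 library per time, LPS had no test. Genes and lists were chosen with earlier results of these data known. Named genes were the 5 highest, lowest, most increased and most decreased, the stalk, MDM2-binding, immune-linked and paralogue genes, and those past the threshold. Some of the genes this names are not reported here. No label says whether same-numbered AAV samples shared more than a number.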

Additional observations from a re-analysis of the deposited data

Results flagged for a closer look

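On the deposited scale, 7 ribosomal protein genes lay on opposite sides of their LPS 0h level at 2h and 4h, with counting intervals that did not reach 0 at either time. Rpl22l1 was lower at 2h (-0.51) and higher at 4h (0.44). The other 6 were higher at 2h and lower at 4h: Rpl13a at 0.63 and -0.087, Rps3 at 0.44 and -0.054, Rpl28 at 0.31 and -0.13, Rpl32 at 0.28 and -0.093, Rpl3 at 0.27 and -0.10, and Rps18 at 0.16 and -0.13. These differences were not tested, since each time had 1 library. Both times are set against the same 0h library. With equal library totals all 14 values were below 0.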

How the results depend on the processing

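The direction of the LPS medians depended on scaling. The medians at 2h and 4h were -0.33 and -0.75 with equal library totals, -0.34 and -0.77 with totals that leave out the members and pseudogenes, and 0.64 and 0.44 with each library centred on its median (all genes then at 0.26 and 0.33). TMM factors gave 0.26 and 0.02. Members at least 2-fold lower at 2h numbered 5 with equal totals and with totals without members, 2 without a filter, and 0 with a mean of at least 5 or a pseudocount of 5, and at 4h 1 with equal totals and 2 without members. Centring gave 7 members 2-fold higher at 2h and 2 at 4h. Of 74 changes of named members, 43 turned direction with equal totals and 18 with centring. Shares at 0h, 2h and 4h were 3.18%, 2.57% and 1.90% with pseudogenes and 2.68%, 2.13% and 1.58% without the 5 highest members, and 3.13% and 1.87% at 0h and 4h without mitochondrial transcripts.

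In the AAV samples the 1 call became 0 without the variance trend, without a filter and with the exon length trend removed. Members with an unadjusted p under 0.05 (limma) in these 3 fits numbered 7, 14 and 21 higher and 1, 0 and 2 lower. Over all genes the fits without a filter and without either AAV-GFP sample called 0 higher and 0 lower, that without the variance trend 1 and 4, those without AAV-SHISA3 replicate 1 or 2 called 12 and 3 or 27 and 7, and that with the length trend removed 262 and 481. The Rpl36 fold stayed between 0.26 and 0.35 in all of these fits, those with a sample left out included. The median was 0.26 after centring. It ranged from 0.11 to 0.16 with 1 sample left out, a fit that assumes the lone sample varies like the others. The difference in share was 0.906 points without the 5 highest members (8.32% and 7.95% in AAV-GFP, 9.04% and 9.04% in AAV-SHISA3), and 0.920 to 1.24 with 1 sample left out. Without mitochondrial transcripts AAV-GFP replicate 1 was at 9.93% and AAV-SHISA3 replicate 2 at 10.9%. The replicate number used as a block gave 5 members higher (among them Rpl3, Rpl36 and Rps9) and 424 higher and 851 lower over all genes. The deviations of same-numbered samples correlated at 0.19 across genes, and no label says that the numbers mark a shared batch. The causes of these shifts were not tested. The shallow 2h library limits the precision of low genes, and the TPM carry no depth.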
